A study of Homo sapiens with 36 samples.

Results

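The comparison described here sets 3 libraries of IRG1 knockout (KO) cells against 3 libraries of wild-type (WT) cells, all given vehicle for 24 h, 6 of the 36 RNA-seq libraries of the study. The libraries were chosen by their labels alone, and every gene of the deposited table was compared. Both groups were THP-1 cells, a human monocytic leukaemia line, turned into macrophage-like cells with 100 nM of the phorbol ester PMA over 72 h before the vehicle was added. The KO libraries carried the labelled loss of IRG1, whose current symbol is ACOD1, and the WT libraries did not. The labels do not say how the knockout was made or whether it was a single clone, nor whether the replicates were separate cultures. The tests therefore see only the variation among libraries within groups, which may be technical. The other groups used below were the same genotypes given vehicle for 6 or 12 h, or LPS with interferon-gamma (200 ng/mL each) for 24 h, with 3 libraries in each.

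ACOD1 sits in mitochondria and turns the TCA cycle intermediate cis-aconitate into itaconate, a metabolite that macrophages make in quantity once they sense bacterial products. Itaconate slows succinate dehydrogenase and can modify cysteines of regulatory proteins, and the study asked how the cell's own itaconate bears on cytokine output and ubiquitination. Resting macrophages hardly transcribe ACOD1, so vehicle-treated cells show the state of the KO line before the gene is induced. PMA-treated THP-1 cells attach, stop dividing and take up macrophage genes such as CD14, CD68 and CD163.

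Values were the authors' log2 expression values, compared with a limma model fitted to all 36 libraries. A gene was called when its adjusted p (Benjamini-Hochberg over 21232 genes) was below 0.05. Differences are KO minus WT on the log2 scale, and ± gives their standard error from the fit (n = 3 libraries each). This error rests on a spread per gene shared by all 36 libraries, not on the spread of the 6 libraries alone. A linear fold is printed where the KO and WT means were both at least 3.32, which is log2(10). All 6 libraries expressed macrophage genes. None of 10 core macrophage markers was below log2(10) throughout, and 4 of the 10 (CD14, CD68, LYZ and AIF1) were called lower in KO cells. Their summed level, as a log2 value, was 14.6 to 14.7 in KO libraries and 15.7 to 16.2 in WT libraries. The summed level of 5 precursor markers (MPO, ELANE, PRTN3, AZU1 and CTSG) was 14.0 to 14.2 in KO libraries and 12.4 to 13.7 in WT libraries. Of these 5, 1 (AZU1) was called higher and 0 lower. The part of these markers in the results below was not tested. In bulk RNA a smaller share of cells of a type and less RNA per cell cannot be told apart.

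ACOD1 could not check the labels under vehicle, since it was close to 0 in both genotypes. It read 0.03, 0.32 and 0.03 in KO libraries and 0.59, 0.86 and 0.32 in WT libraries (-0.47 ± 0.47, adjusted p = 0.77). In the stimulated libraries of the same time it read 8.31, 9.78 and 8.60 in KO cells and 10.95, 10.96 and 9.20 in WT cells. There KO replicate 2 lay above WT replicate 3, so the groups overlapped and ACOD1 did not separate the labels either. KO replicate 2 stood apart. Of 487 genes called higher at both 6 h and 12 h, KO replicate 2 was the KO library nearest to WT in 59.8%, and of 398 called lower at both times also in 59.8%. WT replicate 2 was the WT library nearest to KO in 52.0% and 51.5% of these genes. Over all genes KO replicate 2 correlated with WT replicate 2 (Spearman rho 0.964) about as with KO replicates 1 and 3 (0.962 and 0.955), whereas WT replicate 3 correlated least with its own group (0.944 and 0.932).

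At 24 h, 473 genes were higher in KO cells (2.23% of those tested) and 372 were lower (1.75%), 3.98% together. At an unadjusted p below 0.05 the share was 14.7%. The median difference was 2.15 among the genes called higher and -2.03 among those called lower, against -0.02 over all genes. Of the called genes 266 rose and 189 fell by at least 2 on the log2 scale, and 39 and 16 by at least 4. The values of the 3 KO and 3 WT libraries did not overlap for 461 of the 473 and 368 of the 372, against 23.0% of all genes tested (10.9% higher and 12.2% lower in KO cells). The calls came from these same values, so the separation adds no support to them.

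The counts leaned on single libraries. They were 508 higher and 365 lower without KO replicate 2 (2.39% and 1.72% of genes), and 395 and 376 without WT replicate 2. They were 165 and 126 without KO replicate 1, 236 and 171 without KO replicate 3, 243 and 167 without WT replicate 1, and 267 and 205 without WT replicate 3 (1.26% and 0.966%). In all of these 6 fits 139 of the 473 and 102 of the 372 genes passed the test. With the replicate number as a block the counts were 766 and 685 (3.61% and 3.23%).

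**Figure D1:**
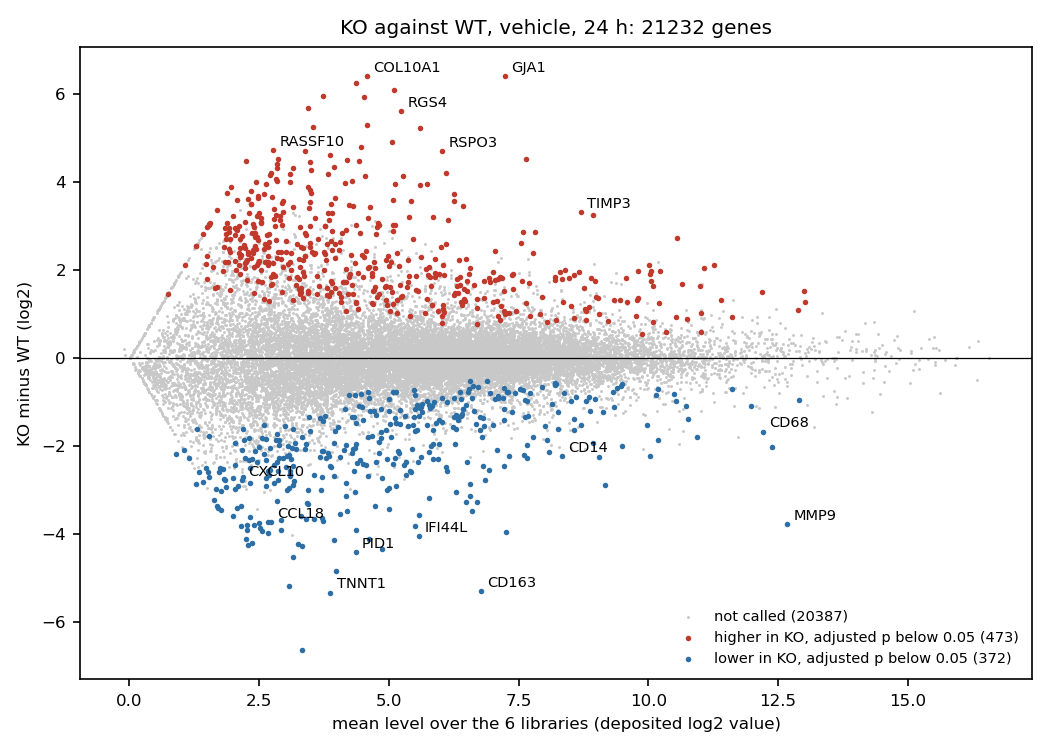
Difference of each of 21232 genes between KO and WT vehicle libraries at 24 h (log2, vertical axis) against its mean level over the 6 libraries (deposited log2 value, horizontal axis). Red points are the 473 genes called higher in KO cells and blue points the 372 called lower, and MMP9 and CD68 stand out as highly expressed genes that were lower.

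Of 30 scavenger and phagocytic receptors tested, 11 (36.7%) were lower in KO cells and 0 higher, against 1.75% lower over all genes. The list median was -1.36, with 4 differences above 0. CD163, the receptor that clears haemoglobin bound to haptoglobin, was at 3.29, 4.73 and 4.35 in KO libraries against 10.14, 9.15 and 8.99 in WT libraries. The groups lay far apart and the level was 39.5-fold lower in KO cells (-5.31 ± 0.71, adjusted p = 2.73e-05). VSIG4, a complement receptor of resident macrophages, was at 3.02, 4.48 and 2.37 in KO libraries and 7.23, 6.31 and 6.62 in WT libraries (-3.43 ± 0.77, adjusted p = 0.0079). SIGLEC1, which binds sialic acids on cells and virions, read 3.30, 6.67 and 4.56 in KO libraries and 8.21, 8.43 and 7.75 in WT libraries, 9.75-fold lower in KO cells (-3.29 ± 0.72, adjusted p = 0.0068). For SIGLEC1 the KO library nearest to WT was replicate 2.

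The members called included C-type lectins. CLEC5A, which pairs with the adaptor DAP12, read 1.25, 1.49 and 0.85 in KO libraries and 6.05, 6.03 and 4.32 in WT libraries (-4.27 ± 1.07, adjusted p = 0.0187). CLEC10A, which binds galactose-type sugars, read 0.79, 2.78 and 0.95 in KO libraries and 4.88, 4.50 and 5.91 in WT libraries (-3.59 ± 0.92, adjusted p = 0.0217). CLEC7A, the beta-glucan receptor Dectin-1, was 4.49-fold lower (-2.17 ± 0.56, adjusted p = 0.0233), and neither it nor the other lectins named had overlapping groups. Besides those named the 11 were CLEC4E, CLEC4A, LRP1, CD163L1 and CD68. Without single libraries the 11 became 2 (KO replicate 1), 8 (KO replicate 2), 5 (KO replicate 3), 3 (WT replicate 1), 11 (WT replicate 2) and 7 (WT replicate 3), and 4 with only the 6 libraries in the fit. CD163 and CD68 passed in all 6 of these fits. The highest adjusted p over them was 0.0906 for CLEC5A, 0.144 for CLEC10A, 0.0674 for VSIG4, 0.104 for SIGLEC1 and 0.156 for CLEC7A.

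The wider macrophage identity list gave 7 lower (21.9%) and 0 higher of 32 tested (median -0.64), against 1.75% lower over all genes. CD163 and CD68 belong to this list as well as to the scavenger receptors. CD14, the LPS coreceptor, read 7.70, 6.92 and 7.06 in KO libraries and 9.97, 9.07 and 9.34 in WT libraries, 4.70-fold lower in KO cells (-2.23 ± 0.57, adjusted p = 0.0218). The endosomal glycoprotein CD68 read 10.88, 11.60 and 11.65 in KO libraries and 13.15, 12.88 and 13.12 in WT libraries, 3.19-fold lower (-1.67 ± 0.32, adjusted p = 0.0023). The groups overlapped for neither gene. Besides CD163, the others were the tetraspanin CD9 (-2.09 ± 0.44), lysozyme (LYZ, -2.03 ± 0.53), the actin-bundling AIF1 (-1.98 ± 0.45) and the protease CTSB (-1.53 ± 0.33). Without single libraries the count was 3 (KO replicate 1), 5 (KO replicate 2), 5 (KO replicate 3), 4 (WT replicate 1), 7 (WT replicate 2) and 4 (WT replicate 3). CD14 passed in 1 of the 6 fits, with adjusted p up to 0.121, LYZ in 2 (up to 0.182), AIF1 and CTSB in 4 each (up to 0.0839 and 0.0763) and CD9 in 5 (up to 0.0686).

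Fc receptors and complement gave 6 lower (26.1%) and 0 higher of 23 (median -0.36), against 1.75% lower over all genes. FCGR3A, the low-affinity IgG receptor CD16, read 2.29, 2.64 and 1.93 in KO libraries and 7.22, 5.68 and 4.63 in WT libraries (-3.56 ± 0.83, adjusted p = 0.0109). Its near-identical copy FCGR3B may share these reads. The complement factor B gene CFB, needed for the alternative pathway, was lower by a difference of -2.44 ± 0.48 and passed in every fit with a library left out. The C1q chain gene C1QC was 8.20-fold lower and the C5a receptor gene C5AR1 was 3.13-fold lower. FCGR2B and FCGR2C, 4.02-fold and 3.86-fold lower, share most of their sequence, so reads may be split between them and their separate values are uncertain. The count was 1 without KO replicate 1, KO replicate 3 or WT replicate 1, and 3 without KO replicate 2 or WT replicate 3. Over the 6 fits the highest adjusted p was 0.0997 for FCGR3A, 0.132 for C1QC, 0.232 for C5AR1, 0.229 for FCGR2B and 0.274 for FCGR2C.

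Of 29 chemokines tested, secreted proteins that draw leukocytes, 10 (34.5%) were lower in KO cells and 0 higher, against 1.75% lower over all genes. The list median was -1.51, with 5 differences above 0. The monocyte attractant CCL2 had the highest levels of these 10, at 3.24, 4.54 and 4.63 in KO libraries and 6.01, 6.93 and 6.58 in WT libraries, 5.18-fold lower in KO cells (-2.37 ± 0.65, adjusted p = 0.0313). CCL18, which attracts lymphocytes, read 0.19, 0.80 and 1.60 in KO libraries and 4.01, 4.25 and 5.52 in WT libraries (-3.73 ± 0.62, adjusted p = 4.24e-04). The groups of both genes were apart.

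The neutrophil attractants CXCL1, CXCL2, CXCL3 and CXCL6, which act through CXCR2, were all called lower. CXCL1 read 2.12, 1.18 and 1.94 in KO libraries and 4.50, 3.97 and 3.57 in WT libraries (-2.27 ± 0.41, adjusted p = 0.0010). CXCL3 read 0.06, -0.17 and 0.64 in KO libraries and 3.72, 2.21 and 2.74 in WT libraries (-2.72 ± 0.48, adjusted p = 8.13e-04). CXCL6 differed by -2.55 ± 0.52 and CXCL2 by -1.81 ± 0.51. CXCL8 belongs to the same receptor's ligands and did not pass the test, at 3.57, 4.13 and 3.20 in KO libraries against 6.15, 6.56 and 4.67 in WT libraries (-2.16 ± 0.68, adjusted p = 0.0728).

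The CXCR3 ligands CXCL10 and CXCL11, which draw activated T cells, were also lower. CXCL10 read -0.09, 2.38 and 0.06 in KO libraries and 2.76, 4.42 and 3.49 in WT libraries (-2.78 ± 0.73, adjusted p = 0.0251), with KO replicate 2 close to the lowest WT library. CXCL11 differed by -2.59 ± 0.72, CCL13 by -3.02 ± 0.59 and CCL7 by -2.17 ± 0.63. Without single libraries the 10 became 5 (KO replicate 1), 9 (KO replicate 2), 5 (KO replicate 3), 6 (WT replicate 1), 7 (WT replicate 2) and 6 (WT replicate 3). CCL18, CCL13, CXCL3, CXCL6 and CXCL1 passed in all 6 fits. The highest adjusted p in them was 0.192 for CXCL10, 0.165 for CXCL11, 0.244 for CCL2, 0.186 for CCL7 and 0.269 for CXCL2. The WT means of CCL13, CXCL3, CXCL11, CCL7 and CXCL2 were below log2(10). With a pseudocount of 5 the calls of CXCL10 (adjusted p = 0.0906), CXCL11 (0.521), CCL13 (0.108), CXCL3 (0.119) and CXCL6 (0.087) were lost.

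The promoters of these chemokines are shown because several carry the same short word. The letters GGGA, any 2 bases, then TTCC, a form of the kappaB element that NF-kB proteins are known to bind, were searched on both strands in the 250 bases before each gene's start, from RefSeq (GRCh38.p14). Entries were matched for 13736 of the 21232 genes. The word was found in 6 of the 9 called chemokines with an entry (66.7%), in 2 of 14 chemokines that were not called (14.3%), and in 1.5% of all genes. The calls come from these same data, and those of CXCL10, CXCL11 and CXCL2 were lost with single libraries left out. The windows of CXCL1, CXCL2 and CXCL3 are nearly identical, so they are not independent matches. Whether the word bears on the lower levels was not tested. Each match nearest the start is in capitals with up to 20 bases on either side, read in the direction of the gene. In CXCL1, CXCL2, CXCL3 and CXCL6 the letters run the other way and overlap a further match shifted by a base.
CXCL1 (chr4:73869295-73869344, plus strand): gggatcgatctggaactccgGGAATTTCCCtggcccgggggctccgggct
CXCL10 (chr4:76023645-76023694, minus strand): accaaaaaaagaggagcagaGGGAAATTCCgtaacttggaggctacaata
CXCL11 (chr4:76036117-76036166, minus strand): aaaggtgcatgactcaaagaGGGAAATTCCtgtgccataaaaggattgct
CXCL2 (chr4:74099243-74099292, minus strand): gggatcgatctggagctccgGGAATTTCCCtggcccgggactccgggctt
CXCL3 (chr4:74038738-74038787, minus strand): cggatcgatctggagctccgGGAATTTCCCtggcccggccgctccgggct
CXCL6 (chr4:73836569-73836618, plus strand): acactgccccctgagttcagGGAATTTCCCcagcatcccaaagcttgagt
None of these overlapped a match of the interferon word described next, and a match of letters shows neither binding nor its absence.

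Interferon-stimulated genes, the antiviral set that cells switch on through type I interferon and STAT factors, were also measured without any stimulus. Of 41 tested, 14 (34.1%) were lower in KO cells and 0 higher, against 1.75% lower over all genes. The difference was below 0 in every one of the 41 (median -1.35). IFI44L read 1.28, 6.28 and 3.09 in KO libraries and 6.04, 9.14 and 7.63 in WT libraries, 16.6-fold lower (-4.05 ± 1.06, adjusted p = 0.0244). Here KO replicate 2 lay above WT replicate 1, so the groups overlapped. OASL, which binds the RNA sensor RIG-I, read 1.38, 4.29 and 2.18 in KO libraries and 5.01, 6.05 and 6.17 in WT libraries (-3.13 ± 0.68, adjusted p = 0.0060).

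The IFIT proteins, which bind foreign RNA ends, gave 4 of the 14. IFIT3 read 4.95, 6.36 and 5.44 in KO libraries and 7.57, 8.64 and 7.91 in WT libraries, 5.49-fold lower (-2.46 ± 0.57, adjusted p = 0.0110). IFIT2 was 6.88-fold lower (-2.78 ± 0.80), IFIT5 3.14-fold lower (-1.65 ± 0.40), and IFIT1 differed by -2.03 ± 0.58. The dynamin-like GTPase MX1, which blocks virus replication, read 2.73, 5.88 and 3.79 in KO libraries and 5.98, 7.57 and 6.62 in WT libraries, 6.01-fold lower (-2.59 ± 0.74, adjusted p = 0.0426). MX2 was 4.21-fold lower (-2.07 ± 0.50). The groups of IFIT3 and MX1 did not overlap. EPSTI1, TRIM22, IFI44, HERC5, XAF1 and IFI35 completed the 14, with differences of -2.73, -2.43, -2.29, -1.79, -1.50 and -1.22.

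In all 14 genes the highest KO library was replicate 2, and in 12 of them the highest WT library was also replicate 2. The count was 20 without KO replicate 2, 0 without KO replicate 1, 2 without KO replicate 3, 14 without WT replicate 1, 2 without WT replicate 2 and 6 without WT replicate 3. With the replicate block it was 22 (3.23% of all genes were lower there), and with only the 6 libraries in the fit 0. None of the 14 passed in all 6 fits with a library left out. OASL and EPSTI1 passed in 5 of the 6 (highest adjusted p 0.0857 and 0.0503), and the highest adjusted p of the others ran from 0.101 for IFIT3 to 0.346 for MX1, with 0.264 for IFI44L, 0.278 for IFIT2 and 0.245 for IFIT1.

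Upstream windows of this group are shown for the interferon-stimulated response element, the site of the ISGF3 complex. The letters TTTC, any 2 bases, then TTTC, searched on both strands as above, were present in 7 of 10 called genes with an entry (70.0%), in 11 of 21 that were not called (52.4%) and in 2.6% of all genes. Among all genes called lower 7.4% held the word and among those called higher 1.8%. The match nearest the start is in capitals, and CXCL10 is added as the interferon-responsive chemokine.
CXCL10 (chr4:76023689-76023738, minus strand): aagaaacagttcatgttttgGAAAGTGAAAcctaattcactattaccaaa
EPSTI1 (chr13:42992262-42992311, minus strand): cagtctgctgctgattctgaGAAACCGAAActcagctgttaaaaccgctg
HERC5 (chr4:88457025-88457074, plus strand): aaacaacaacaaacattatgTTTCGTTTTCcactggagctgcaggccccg
IFI44 (chr1:78649751-78649788, plus strand): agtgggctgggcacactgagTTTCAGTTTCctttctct
IFI44L (chr1:78620355-78620404, plus strand): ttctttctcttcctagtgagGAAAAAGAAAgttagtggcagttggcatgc
IFIT1 (chr10:89392500-89392549, plus strand): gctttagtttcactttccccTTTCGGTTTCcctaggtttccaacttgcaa
IFIT3 (chr10:89327855-89327904, plus strand): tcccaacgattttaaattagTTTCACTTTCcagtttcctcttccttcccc
IFIT5 (chr10:89414529-89414567, plus strand): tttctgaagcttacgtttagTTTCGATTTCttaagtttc
These matches began between 18 and 221 bases before the start. Windows are printed only for genes called lower in these same data, so their lower levels are not a result of the search. IFI44 and IFIT5, with the nearest matches, differed by -2.29 ± 0.61 and -1.65 ± 0.40. None of the 14 calls held in all 6 fits with a library left out. Whether the word bears on the lower levels was not tested.

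**Figure D2:**
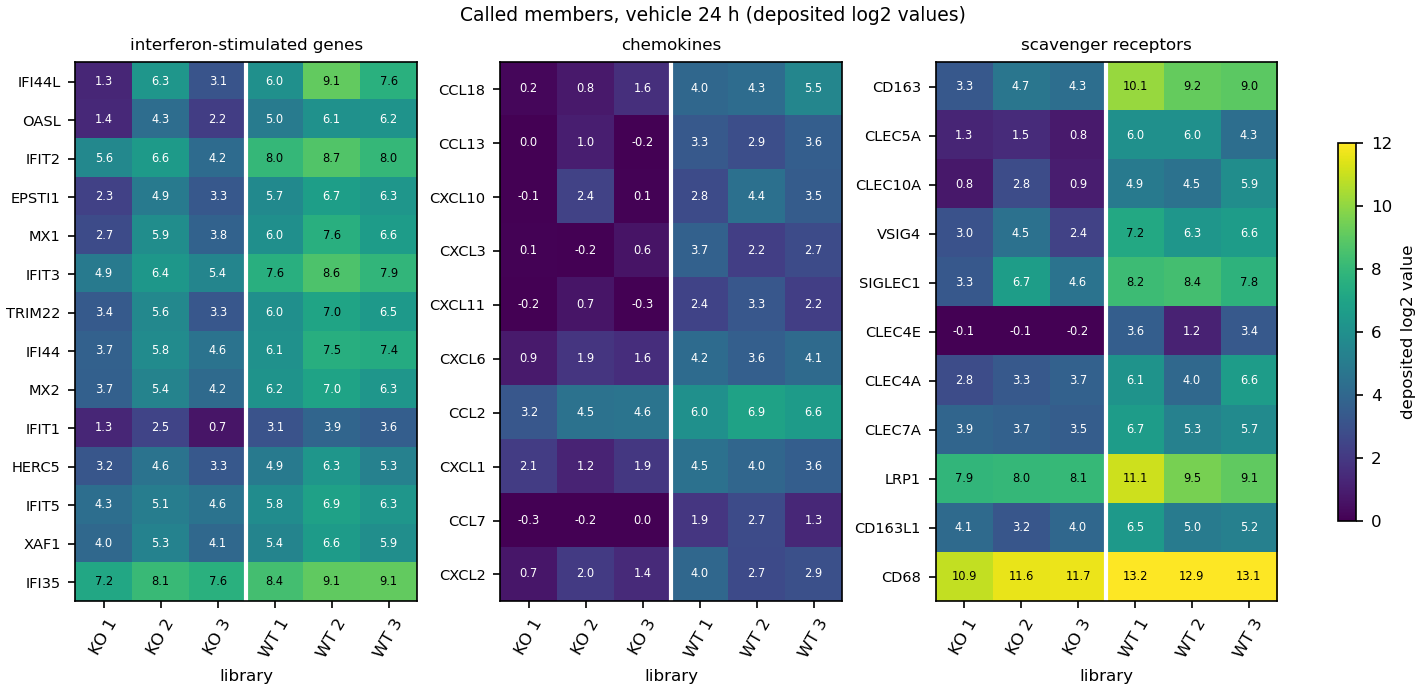
Deposited log2 values of the called interferon-stimulated genes (14), chemokines (10) and scavenger receptors (11) in each vehicle library at 24 h, KO libraries on the left and WT libraries on the right of each panel. Colour and printed number give the same value. In the first panel KO replicate 2 is the highest KO library in every row, and IFI44L reads 6.3 in it against 6.0 in WT replicate 1.

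Few inflammatory mediators outside the chemokines passed the test, and several were scarcely expressed. TNF read 0.63, 0.93 and 0.43 in KO libraries and 1.54, 2.12 and 1.50 in WT libraries (-1.06 ± 0.44, adjusted p = 0.228), and it passed with the replicate block (0.0455). IL1B, whose product inflammasomes cleave, read 4.72, 6.35 and 5.79 in KO libraries and 5.13, 7.02 and 5.24 in WT libraries (-0.18 ± 1.24, adjusted p = 0.98), so the groups overlapped. IL6 was near 0 throughout (0.07 ± 0.63, adjusted p = 0.984). IFNB1, the type I interferon gene, read 0.00, 0.01 and 0.00 in KO libraries and 1.68, 2.56 and 0.00 in WT libraries (-1.41 ± 1.04, adjusted p = 0.622). IL10 read 0.26, 2.19 and 0.20 in KO libraries and 3.92, 1.66 and 2.69 in WT libraries (-1.88 ± 0.69, adjusted p = 0.147), and passed without KO replicate 2 (0.0486). HMOX1, which breaks down haem, read 8.61, 8.77 and 9.27 in KO libraries and 10.09, 10.31 and 9.99 in WT libraries (-1.25 ± 0.44, adjusted p = 0.125), and passed with the block (0.0468).

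Of 25 proinflammatory cytokines, 2 (8%) were lower and 0 higher, against 1.75% lower over all genes. With the block 5 were lower, against 3.23% over all genes. The 2 called without the block were EBI3, a subunit of interleukins 27 and 35 (-3.05 ± 0.62), and the B-cell factor TNFSF13B (-2.28 ± 0.58). EBI3 read 2.90, 3.44 and 2.12 in KO libraries and 5.74, 5.62 and 6.24 in WT libraries. Of 20 anti-inflammatory mediators 2 (10%) were lower, the decoy receptor IL1R2 (-2.90 ± 0.85) and the amino acid oxidase IL4I1 (-2.55 ± 0.65). With the block 4 were lower. EBI3 passed in all 6 fits with a library left out, whereas TNFSF13B, IL1R2 and IL4I1 did not.

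Of 30 NF-kB subunits, feedback and target genes, 4 (13.3%) were lower and 0 higher (median -0.54), against 1.75% lower over all genes. NFKB2, the precursor of the p52 subunit, read 3.87, 4.66 and 3.84 in KO libraries and 5.74, 5.62 and 5.94 in WT libraries, 3.13-fold lower (-1.65 ± 0.25, adjusted p = 1.59e-04). Its partner RELB was 2.13-fold lower (-1.09 ± 0.27, adjusted p = 0.0184). The early response gene IER3 (-2.22 ± 0.43) and the hyaluronan binder TNFAIP6 (-1.60 ± 0.45) completed the 4. The groups of NFKB2 were separate. NFKB2 and IER3 passed in all 6 fits, and RELB and TNFAIP6 did not (highest adjusted p 0.139 and 0.23). The count was 2 without KO replicate 1, KO replicate 3, WT replicate 1 or WT replicate 3.

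Against 1.75% lower over all genes, inflammasome and pyroptosis genes gave 4 lower (16.7%) and 0 higher of 24 (median -0.14). They were the caspase gene CASP5 (-1.87 ± 0.51), the pore former GSDME (-1.41 ± 0.37), the flagellin-pathway scaffold NLRC4 (-1.34 ± 0.39) and NINJ1, which ruptures the membrane of dying cells (-0.83 ± 0.23). None of the 4 passed in all 6 fits. The count was 0 without KO replicate 1, KO replicate 3, WT replicate 1 or WT replicate 3, and 2 without KO replicate 2.

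The largest falls by the naming rule included genes best known from other tissues. The rule itself required that KO and WT values did not overlap. TNNT1, the troponin T of slow muscle, read 0.89, 1.78 and 0.95 in KO libraries and 6.63, 5.84 and 7.15 in WT libraries (-5.33 ± 0.43, adjusted p = 3.11e-09). MAGED1, a member of the MAGE adaptor family on chromosome X, read 0.09, 0.40 and 0.95 in KO libraries and 5.58, 5.18 and 6.22 in WT libraries (-5.18 ± 0.33, adjusted p = 3.85e-11). INA, a neuronal intermediate filament, read 1.84, 2.45 and 0.40 in KO libraries and 6.10, 8.09 and 5.05 in WT libraries (-4.85 ± 0.84, adjusted p = 6.07e-04). In KO cells each of these was near the floor of the table.

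Others among the 15 largest falls have roles in transport, secretion and transcription. PID1, which binds the lipoprotein receptor LRP1, read 0.83, 2.94 and 2.70 in KO libraries and 7.36, 5.66 and 6.70 in WT libraries (-4.41 ± 0.72). SLC12A7, a potassium chloride cotransporter, differed by -4.13 ± 0.55, the homeobox gene NKX2-2 by -4.24 ± 0.58 and the secreted ribonuclease RNASE1 by -4.35 ± 0.95. The collectin receptor COLEC12, which takes up modified lipoproteins, was 14.1-fold lower (-3.82 ± 0.65). The small GTPase gene RAB42 differed by -4.52 ± 0.78, and RAB42P1, its pseudogene, by -3.94 ± 0.99, so reads may be shared between them. The pepsinogen genes PGA3, PGA4 and PGA5 differed by -3.92 ± 0.65, -4.12 ± 0.67 and -3.71 ± 0.67. They are near-identical neighbours on chromosome 11, and their separate values are uncertain. In 12 of the 15 falls the KO library nearest to WT was replicate 2. Of the 15 falls 12 passed in all 6 fits with a library left out. RNASE1 was lost without WT replicate 1 (adjusted p = 0.0593), CLEC5A without KO replicate 1, KO replicate 3, WT replicate 1 or WT replicate 2, and MMP9 without KO replicate 1 (0.0744) or WT replicate 1 (0.0844).

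The 15 largest rises came from the same rule. GJA1, a connexin that forms gap junctions, read 12.70, 8.28 and 10.37 in KO libraries and 4.39, 4.74 and 2.95 in WT libraries, 85.5-fold higher in KO cells (6.42 ± 1.10, adjusted p = 5.76e-04). COL10A1, the collagen X of growth-plate cartilage, read 9.54, 7.43 and 6.39 in KO libraries and 0.87, 1.26 and 1.99 in WT libraries (6.41 ± 0.90, adjusted p = 4.48e-05). The secreted peptide gene NTS (neurotensin) read 7.46, 7.54 and 7.50 in KO libraries and 1.09, 1.54 and 1.08 in WT libraries (6.26 ± 0.86, adjusted p = 3.21e-05). GJA1 spread over more than 4 log2 units among the KO libraries, whereas NTS hardly varied.

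HSPB3, a small heat shock protein of muscle, read 8.02, 8.43 and 7.98 in KO libraries and 0.00, 3.74 and 2.41 in WT libraries (6.09 ± 0.96). RGS4, which shortens G protein signals, read 8.58, 7.90 and 7.64 in KO libraries and 1.96, 3.47 and 1.87 in WT libraries (5.61 ± 0.45, adjusted p = 3.11e-09). RSPO3, which strengthens Wnt signals, read 9.42, 6.52 and 9.20 in KO libraries and 3.58, 3.96 and 3.48 in WT libraries, 26.1-fold higher (4.70 ± 0.92, adjusted p = 0.0025). In 10 of the 15 rises the lowest KO library was replicate 2, and COL10A1, NTS, HSPB3, RGS4 and POU4F2 were the exceptions.

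Transcription factors in this set were POU4F2, known from retinal ganglion cells (5.23 ± 0.50), EOMES, known from lymphocytes and the early embryo (5.30 ± 0.72), and SP6, known from teeth and skin (5.68 ± 0.95). SP6 read 8.33, 3.59 and 6.90 in KO libraries and 0.00, 0.02 and 1.76 in WT libraries. The secreted CTHRC1 differed by 5.96 ± 0.69 and the growth factor binder IGFBP5 by 5.93 ± 0.98. PCARE of photoreceptors (4.92 ± 0.69), the Ras association gene RASSF10 (4.73 ± 0.89), SAMD11 (4.70 ± 0.76) and the readthrough gene STON1-GTF2A1L (4.79 ± 0.97), whose reads cannot be told from those of its parent genes, completed the 15. All 15 passed in each of the 6 fits with a library left out. Beside these rises, markers of fibroblasts and muscle had a summed log2 level of 11.3 to 11.9 in KO libraries and 10.3 to 11.1 in WT libraries. Such a sum follows its most abundant members. The list median was -0.19, with 4 differences above 0 and 7 below. Of 11 tested, 1 was higher (PDGFRA, a growth factor receptor, 3.32) and 1 lower (TNNT1). PDGFRA was lost without KO replicate 1 (adjusted p = 0.242), KO replicate 3 (0.102), WT replicate 1 (0.124) or WT replicate 3 (0.146). DCN, ACTA2, DES, MYH11 and TNNT2 were below log2(10) in all 6 libraries. Neuronal markers summed to 7.35 to 7.64 in KO libraries and 8.45 to 9.10 in WT libraries, with 1 of 6 lower (INA).

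**Figure D3:**
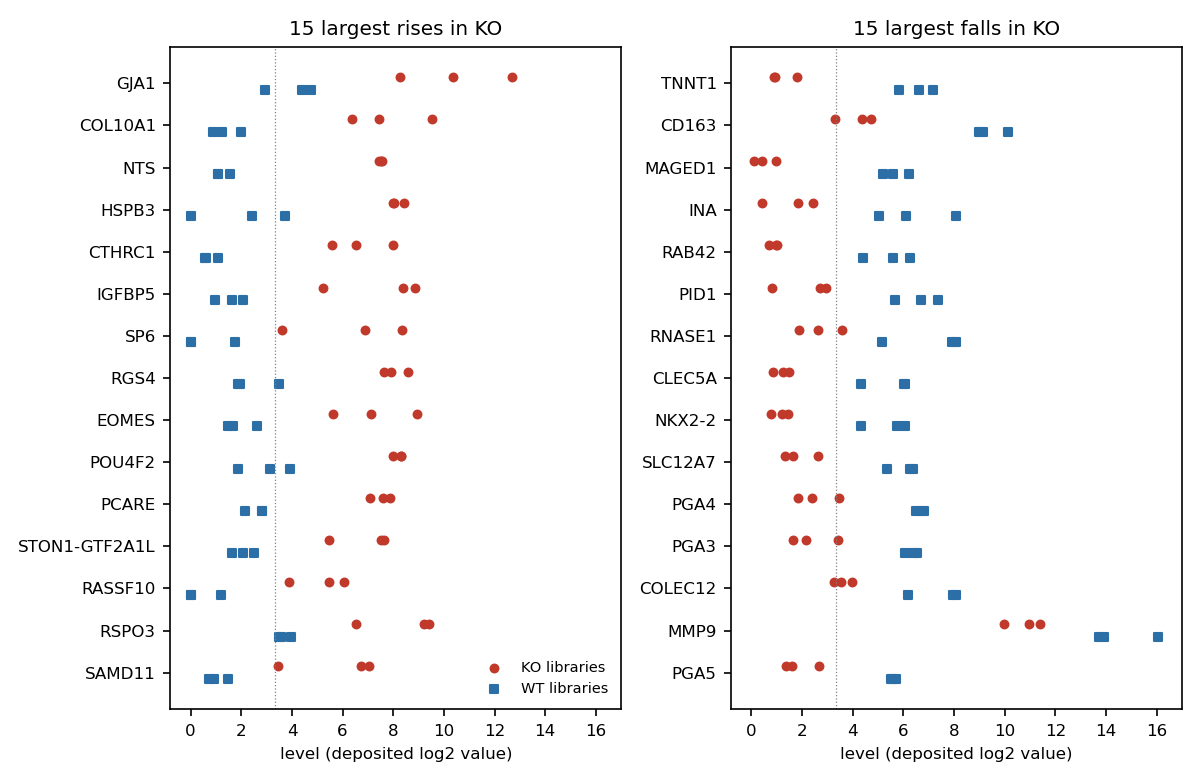
Deposited log2 values of the 15 genes with the largest rises (left panel) and the 15 with the largest falls (right panel) in the 3 KO libraries (red circles) and the 3 WT libraries (blue squares) given vehicle for 24 h. The dotted line marks log2(10), 3.32. The rule allowed no overlap of circles and squares, and WT levels of 14 of the 15 rises average below 4.

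Matrix proteases and their inhibitors changed in both directions, with 2 higher (6.25%) and 4 lower (12.5%) of 32 (median -0.26). Over all genes the shares were 2.23% and 1.75%. MMP9, the gelatinase that macrophages secrete, was among the most abundant transcripts, at 9.97, 11.40 and 10.98 in KO libraries and 16.05, 13.92 and 13.73 in WT libraries, 13.8-fold lower (-3.78 ± 0.85, adjusted p = 0.0079). ADAMDEC1, a macrophage metalloprotease, read 7.43, 8.13 and 7.62 in KO libraries and 11.56, 9.81 and 10.47 in WT libraries, 7.40-fold lower (-2.89 ± 0.48, adjusted p = 4.19e-04). TIMP3, an inhibitor bound to matrix, went the other way, at 10.51, 9.82 and 10.76 in KO libraries and 6.93, 6.90 and 7.32 in WT libraries, 9.92-fold higher (3.31 ± 0.49, adjusted p = 8.83e-05). The groups were separate for each of these. The plasminogen activator PLAU (-2.36 ± 0.44), MMP25 (-2.38 ± 0.53) and the collagenase MMP1 (3.18 ± 0.75) were the other members called. MMP1 was lost without KO replicate 2 (adjusted p = 0.0784), WT replicate 1 (0.0646) or WT replicate 3 (0.121), and MMP25 without KO replicate 3 (0.0753) or WT replicate 1 (0.0752).

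Of 21 myeloid precursor markers, 3 (14.3%) were higher and 0 lower (median 0.47), against 2.23% and 1.75% of all genes. Their differences were above 0 in 12 and below 0 in 9. KIT, the stem cell factor receptor, read 6.78, 5.05 and 6.62 in KO libraries and 2.08, 2.44 and 2.02 in WT libraries (3.97 ± 0.76, adjusted p = 0.0020). GFI1, a repressor that steers granulocyte precursors, was 2.85-fold higher (1.51 ± 0.37), and the granule protein gene AZU1 was 2.12-fold higher (1.09 ± 0.31). KIT passed in all 6 fits, GFI1 in 3 (highest adjusted p 0.0961) and AZU1 in 1 (0.303). The count was 1 without KO replicate 1, KO replicate 3 or WT replicate 1, and 2 without KO replicate 2 or WT replicate 3.

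Among 32 myeloid transcription factors 4 (12.5%) were higher and 2 (6.25%) lower (median -0.16), against 2.23% and 1.75% of all genes. The helix-loop-helix inhibitor ID1 read 9.68, 7.46 and 9.90 in KO libraries and 5.55, 6.23 and 6.68 in WT libraries, 7.26-fold higher (2.86 ± 0.77, adjusted p = 0.0296). ID3 was 7.33-fold higher (2.87 ± 0.80) and RUNX1, a factor of blood stem cells, was 1.95-fold higher (0.96 ± 0.25), beside GFI1. KLF6 was 2.46-fold lower (-1.30 ± 0.24) and BHLHE40 3.13-fold lower (-1.64 ± 0.40). KLF6 passed in all 6 fits and the other 5 did not. The 4 higher became 0 without KO replicate 1, KO replicate 3 or WT replicate 1 and 1 without WT replicate 3. The 2 lower became 1 without KO replicate 1 or WT replicate 1.

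Lysosomal and metabolic lists held 3 calls each, all lower, at 9.68% to 15% of members against 1.75% of all genes (3.23% with the block). Of 31 lysosome and cathepsin genes 3 were lower, CTSH (4.40-fold), CTSB (2.90-fold) and CTSZ (1.93-fold), or 6 with the block. Of 20 genes of fatty acid synthesis and storage 3 were lower, the desaturases FADS2 (5.52-fold) and SCD (3.98-fold) and their regulator SREBF1 (4.40-fold). SREBF1 read 4.37, 5.55 and 4.19 in KO libraries and 6.96, 6.72 and 6.85 in WT libraries (-2.14 ± 0.43, adjusted p = 0.0031). Of 31 glycolysis and hypoxia genes 3 were lower, ENO2 (-2.66 ± 0.40), HK3 (-2.48 ± 0.44) and P4HA1 (-0.94 ± 0.25), or 6 with the block. Of 26 NRF2 targets 3 were lower, the ferritin heavy chain FTH1 (2.63-fold), TKT (2.17-fold) and PRDX1 (1.85-fold), or 6 with the block. NRF2 targets numbered 0 without KO replicate 1, WT replicate 1 or WT replicate 3, and 1 without KO replicate 2 or KO replicate 3. The fatty acid count was 1 without KO replicate 1, KO replicate 3, WT replicate 1 or WT replicate 2, and the lysosomal count was 1 without WT replicate 1.

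Of 13 genes of itaconate and propionate handling, 1 (7.69%) was called, against 3.98% of all genes. This was the efflux pump ABCG2, known to export itaconate. It read 1.93, 2.80 and 2.31 in KO libraries and 4.79, 4.34 and 4.13 in WT libraries (-2.07 ± 0.39, adjusted p = 0.0015), with separate groups, and passed in all 6 fits. Of 33 TCA cycle and carrier genes (median -0.23), 31 respiratory chain subunits (-0.09), 28 integrated stress response genes (-0.55) and 24 cholesterol synthesis genes (-0.53), 0 were called by limma. Differences were below 0 in 26, 26, 25 and 23 of them in turn, so 0 calls do not show unchanged levels. Of the cholesterol genes 8 were called lower and 0 higher at 6 h, and likewise at 12 h. Over all genes 3.91% were lower at 6 h and 2.34% at 12 h. With the block 4 of the stress response genes and 3 of the TCA cycle genes were called. It called 2 and 0 of the respiratory chain and cholesterol genes. Over all genes 3.61% were higher and 3.23% lower with the block.

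The ubiquitin system, named in the study's title, gave 6 calls among 181 genes of 4 lists (3.31%), near the 3.98% called over all genes. Of 39 ubiquitin, E1 and E2 genes, 1 was higher and 2 were lower (median -0.01). The conjugating enzyme gene UBE2D1 read 4.99, 4.98 and 5.09 in KO libraries and 6.13, 5.88 and 6.47 in WT libraries, 2.20-fold lower (-1.14 ± 0.23, adjusted p = 0.0029). UBE2E2 was 1.72-fold lower and UBE2H 1.81-fold higher. Of 59 ligases 1 was higher, MARCHF3 (2.11-fold), and 2 were lower, HERC5 (3.45-fold), which attaches ISG15, and TRIM26 (1.72-fold). Under the block 6 ligases were lower, against 3.23% of all genes. Of 51 deubiquitinases and 32 proteasome genes 0 were called by limma (0 and 2 with the block). UBE2D1 passed in all 6 fits with a library left out and the other 5 genes did not.

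**Figure D4:**
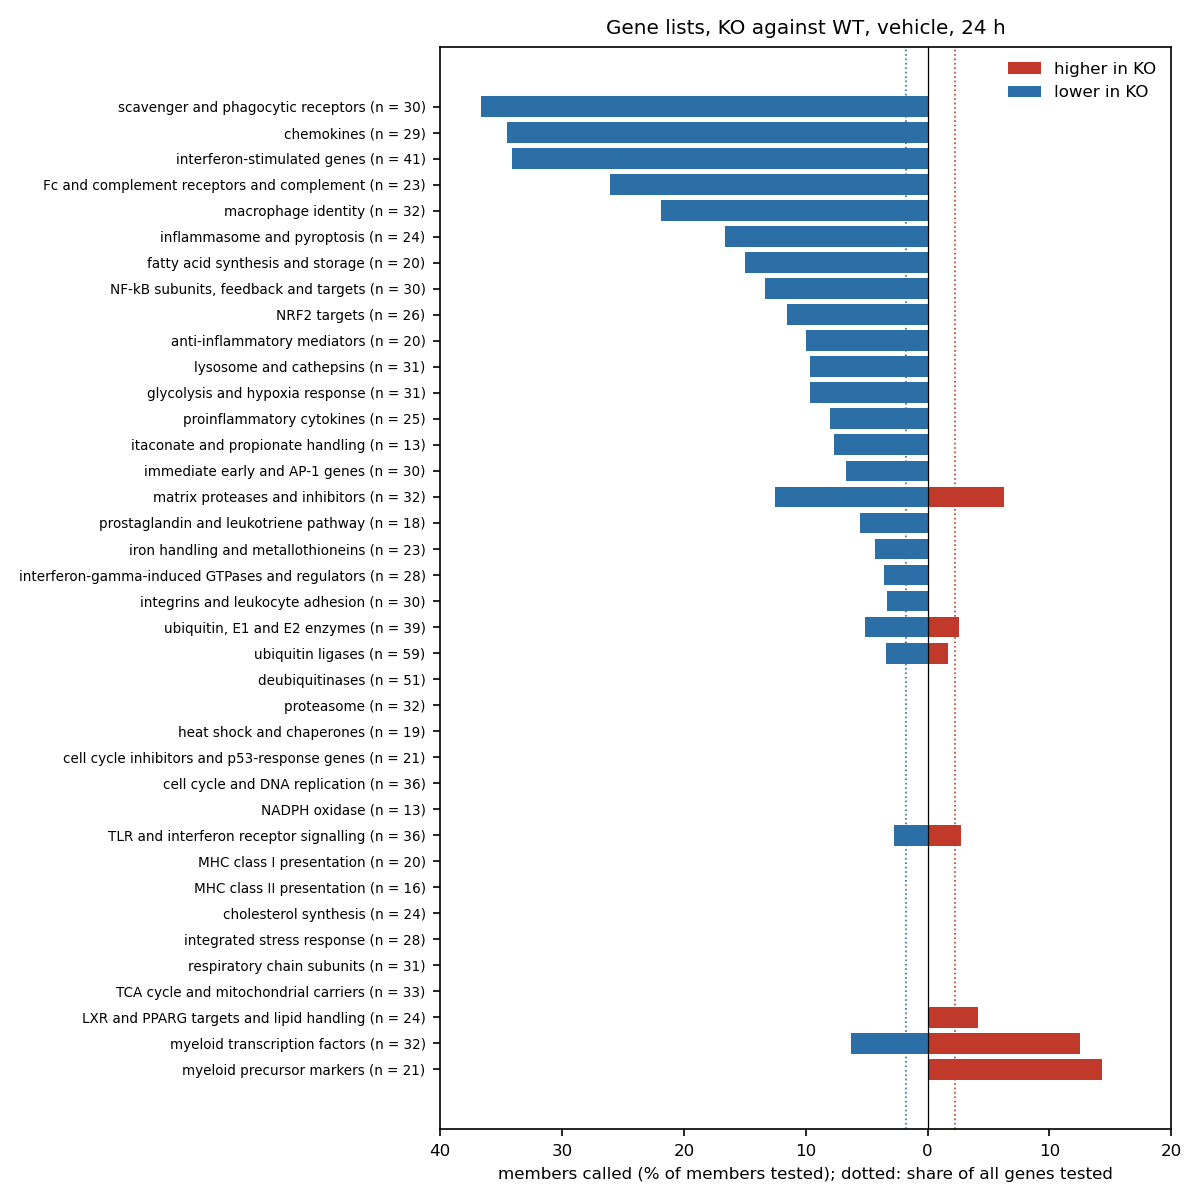
Share of the tested members of each list called higher in KO cells (red, to the right) or lower (blue, to the left), as a percentage of members tested (n in brackets). Dotted lines mark the shares over all 21232 genes, 2.23% higher and 1.75% lower. Scavenger receptors (11 of 30), chemokines (10 of 29) and interferon-stimulated genes (14 of 41) have the longest bars.

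The question of whether the genotype difference depended on time in vehicle was asked with the 6 h and 12 h libraries, which are not those of 24 h. There 908 genes were higher and 831 lower at 6 h (4.28% and 3.91%, 8.19% together, and 20.7% at an unadjusted p below 0.05). At 12 h 616 were higher and 496 lower (2.9% and 2.34%, 5.24% together, and 16.1% unadjusted). Of the 473 genes higher at 24 h, 328 (69.3%) were also higher at 6 h, which is 36.1% of the 6 h genes, and 355 (75.1%) at 12 h, 57.6% of the 12 h genes. Of the 372 lower at 24 h, 269 (72.3%) were lower at 6 h and 270 (72.6%) at 12 h, 32.4% and 54.4% of the genes at those times. Called at 24 h and at neither other time were 86 higher and 74 lower genes, and 0 genes were called in opposite directions. Calls at all times share the same spread per gene from the fit, so they are not independent of one another.

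No gene passed the test of a change in the difference. The limma fit called 0 genes (0.0%) for the 24 h difference minus the 6 h difference, with 499 genes at an unadjusted p under 0.05 (2.35%), and 0 for 24 h minus 12 h, with 118 (0.556%). The first count was 143 with library weights, 7 with a pseudocount of 5, 2 without the mean-variance trend, and 1 without WT 6 h replicate 2. Both unadjusted shares lay below what a cutoff of 0.05 gives by itself when no gene changes, so the test may be too strict. The cause was not tested. Calls of 0 genes therefore do not show that the difference stayed the same. Estimates for single genes moved without passing. CXCL1 was at -4.54 ± 0.41 at 6 h, -3.67 ± 0.41 at 12 h and -2.27 ± 0.41 at 24 h, a change of 2.27 ± 0.58 from 6 h to 24 h (adjusted p = 1). GJA1 stood at 4.10, 4.99 and 6.42 over the 3 times (SE 1.10 each), and INA at -7.03, -5.99 and -4.85 (SE 0.84 each). IFI44L was called at 6 h (-3.38 ± 1.06, adjusted p = 0.0443) and not at 12 h (-3.35 ± 1.06, adjusted p = 0.0625). RAB42 had -3.17, -2.78 and -4.52 (SE 0.78 each).

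**Figure D5:**
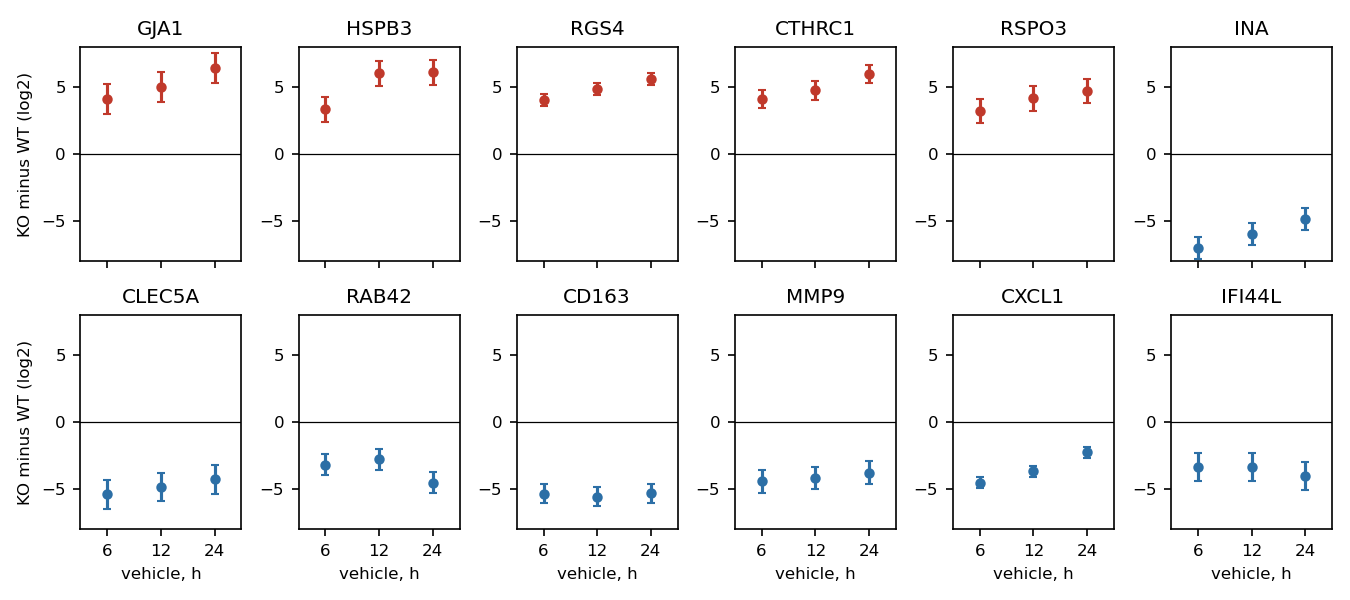
Difference between KO and WT vehicle libraries (log2, vertical axis) at 6, 12 and 24 h for 12 genes (n = 3 libraries of each genotype at each time). Bars are 1 standard error from the fit to all 36 libraries, so a gene has the same bar at each time. Red marks genes higher in KO cells at 24 h and blue marks genes lower. CXCL1 moves from -4.54 at 6 h to -2.27 at 24 h, and CD163 stays between -5.58 and -5.31.

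The last comparison asked whether the difference under vehicle at 24 h was the same under LPS with interferon-gamma. Both differences use the 24 h time and separate libraries. The stimulated difference minus the vehicle difference was called for 92 genes (0.433%), 37 above 0 (0.174%) and 55 below (0.259%), with 12.2% at an unadjusted p below 0.05, and for 427 with the block. Leaving out a library gave 18 without KO vehicle replicate 1, 169 without KO vehicle replicate 2, 24 without KO vehicle replicate 3, 29 without WT vehicle replicate 1 and 45 without WT vehicle replicate 3. It gave 26, 202 and 31 without stimulated KO replicates 1, 2 and 3, and 174 and 36 without stimulated WT replicates 2 and 3. RGS4 read 0.97, 1.14 and 0.78 in stimulated KO libraries and 0.35, 0.64 and 0.20 in stimulated WT libraries, so its vehicle difference of 5.61 became 0.57 (-5.04, adjusted p = 1.40e-04). All of these stimulated values lay below log2(10), near the floor, so 0.57 does not show that the genotypes became alike. TNFRSF9, a costimulatory receptor of the TNF receptor family, read 1.22, 3.39 and 0.10 in KO vehicle libraries and 5.52, 5.53 and 4.66 in WT vehicle libraries, against 9.89, 9.63 and 9.88 in stimulated KO libraries and 8.99, 8.86 and 8.84 in stimulated WT libraries. The TNFRSF9 difference was -3.66 under vehicle and 0.90 when stimulated (4.57 ± 0.79, adjusted p = 0.0066). RGS4 and TNFRSF9 passed with any of the 12 libraries of this comparison left out.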

How the data were processed

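Total RNA (Qiagen RNeasy) from 36 samples was made into libraries with KAPA HyperPrep and RiboErase, per the labels. Reads were trimmed with cutadapt 1.9.1 and aligned with GSNAP to GRCh37.p5, per the submitters' processing notes. The authors deposited log2 expression values per gene. The normalization and the offset before the log are not given in the sources used here. All 36 libraries share a lowest value of -0.34 and a highest of 16.7, with medians of 5.47 to 5.48, so libraries appear equalised in distribution and their depth is unknown.

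Genes with log2 values of at least log2(10) in 3 or more libraries were kept, 21232 of 21599. limma 3.58.1 (R 4.3.3) was fitted with 12 group means, a mean-variance trend and 24 residual degrees of freedom, and p-values were adjusted by Benjamini-Hochberg over all genes kept (Python 3.11.15, pandas 2.3.3 and matplotlib 3.10.9 for tables and figures). On simulated shifts in this comparison, 19 of 100 genes shifted by 1 and 66 of 100 shifted by 2 were recovered. There were 5 false calls among the unshifted genes of the 21232 run. The simulation drew independent noise for each gene and library, without replicate effects or deviating libraries. Its false calls may therefore not carry over to these data. Same-numbered KO and WT vehicle libraries at 24 h deviated together from their group means (r = 0.223, 0.283 and 0.428 for replicates 1, 2 and 3). At 12 h r was 0.108, 0.298 and 0.398. At 6 h the numbers did not pair clearly, with r of 0.213, -0.036 and 0.206, and 0.22 for KO replicate 1 with WT replicate 2. The replicate block, which covers all times, is given where it changed a result. The pairing comes from these correlations, not from the labels.

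Named genes were ACOD1, the 15 largest rises and 15 largest falls among called protein-coding genes whose groups did not overlap and whose higher mean was at least 5, the 5 largest each way for differences of differences, up to 6 called members of a list, and TNF, IL6, IL1B, IL10, CXCL10, IFNB1 and HMOX1. Further members and RAB42P1 were named after their values were seen. The lists and tests were chosen with earlier results of these data known. Promoter windows came from RefSeq GRCh38.p14, matched by gene ID. No coordinates of the authors' build are printed.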

Additional observations from a re-analysis of the deposited data

Results flagged for a closer look

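The 10 genes below had genotype differences at 24 h that differed between stimulated and vehicle libraries by the limma interaction test (5 largest in each direction). Differences are stimulated minus vehicle, each itself KO minus WT on the log2 scale, with adjusted p over 21232 genes.

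Above 0 were TNFRSF9 (4.57, adjusted p = 0.00659), EBI3 (4.20, 0.0267), TMCC3 (3.73, 0.0091), MYH11 (3.47, 0.0113) and the readthrough gene FXYD6-FXYD2 (3.19, 0.0457). EBI3 read 12.61, 12.72 and 12.49 in stimulated KO libraries and 11.32, 12.06 and 10.98 in stimulated WT libraries, so it was 1.15 higher when stimulated and -3.05 under vehicle. MYH11, a smooth muscle myosin, read 7.90, 7.72 and 7.88 in stimulated KO libraries and 4.32, 5.23 and 4.10 in stimulated WT libraries.

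Below 0 were SP6 (-6.57, adjusted p = 0.0222), TIGIT (-5.59, 0.0495), CTHRC1 (-5.21, 0.0107), RGS4 (-5.04, 1.40e-04) and SAMD11 (-4.76, 0.0403). CTHRC1, 5.96 higher in KO cells under vehicle, read 1.56, 1.72 and 2.92 in stimulated KO libraries and 1.58, 1.71 and 0.67 in stimulated WT libraries. TNFRSF9, TMCC3 and RGS4 passed with any of the 12 libraries left out. CTHRC1 and MYH11 were each lost without KO vehicle replicate 1 (adjusted p = 0.0519 for both). EBI3, SP6, TIGIT, SAMD11 and FXYD6-FXYD2 were each lost without several single libraries, with adjusted p up to 0.0992, 0.0985, 0.171, 0.145 and 0.15.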

How the results depend on the processing

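With the replicate block, the KO against WT counts were 766 higher and 685 lower at 24 h, 1775 at 12 h, 2712 at 6 h and 427 for stimulated minus vehicle. With the block and only the compared libraries they were 107 and 83, 194 at 6 h and 5 for stimulated minus vehicle. Of the 107 called named genes 107 passed with the block, which also added TNF and HMOX1, and 27 passed with the block and only the compared libraries. The cause of the changes below was not tested.

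At 24 h the counts were 1571 higher and 1646 lower with library weights, 58 and 39 with a minimum log2 difference of 1, 165 and 119 with only the compared libraries, 129 and 156 with the stricter filter (fewer genes tested), 308 and 221 without KO replicate 2 and WT replicate 3, and 754 and 650 without all KO libraries numbered 2, the last pair of settings chosen after seeing the data. Leaving out a library gave 165 to 508 higher and 126 to 376 lower. At 12 h, of 1112 called, the same settings gave 4492, 127, 562, 384 and 1717 (weights, minimum difference, compared libraries, stricter filter, no KO numbered 2), and a library left out 449 to 1141. At 6 h, of 1739, the first 4 gave 8673, 218, 750 and 766, and a library left out 982 to 1525. For 24 h minus 6 h, with 0 called, they were 143 with weights, 2 with no trend, 7 with a pseudocount of 5, 1 with only the compared libraries, 1 without all KO numbered 2, and 0 to 1 with a library left out. For 24 h minus 12 h every setting run gave 0. For stimulated minus vehicle, of 92, they were 2373 with weights, 3 with the minimum difference, 4 with the compared libraries, 157 with the pseudocount, 9 with the stricter filter, 709 without all KO numbered 2, and 18 to 202 with a library left out.

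Median centring, quantile normalization and no filter kept all 107 named genes called. Others kept 101 (no trend), 93 (pseudocount), 87 (vehicle libraries), 45 (compared libraries), 29 (minimum difference), 72 (without KO replicate 2 and WT replicate 3), 98 (without all KO numbered 2) and 54 of the 61 tested (stricter filter), and leaving out a library kept 54 to 90. Of the named genes IL1B, not called, changed sign, to 0.27 without KO replicate 1 and 0.44 without WT replicate 2, in a range of -0.54 to 0.44 with a library left out. Depth is unknown, so no counting interval could be given, and values near 0 cannot be read as absence.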

Other observations

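The gene groups in this paragraph were chosen after their values were seen, so they carry no test beyond that of each gene. Over all genes 2.23% were called higher and 1.75% lower. Of 16 protocadherin beta genes, clustered cell adhesion genes, 5 were called higher in KO cells (PCDHB5, PCDHB9, PCDHB10, PCDHB13 and PCDHB14) and 13 had a difference above 0 (median 1.05). PCDHB13 was lost in the limma fit without WT replicate 3 (adjusted p = 0.0801). Of 22 protocadherin gamma genes 1 was called, PCDHGA12, with 21 above 0 (median 0.45). Of 15 protocadherin alpha genes 0 were called by limma and 0 were above 0 (median -0.11). Genes in each cluster share sequence, so reads may be split among them.

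Among growth factor and matrix genes also picked after their values were seen, CCN2, a matricellular protein, read 6.51, 5.29 and 5.32 in KO libraries and 0.38, 2.42 and 0.93 in WT libraries (4.46). NOG, which binds and blocks BMPs, read 11.20, 8.21 and 10.30 in KO libraries and 3.96, 5.45 and 6.74 in WT libraries (4.52). YAP1 and WWTR1, the Hippo pathway coactivators, were each 2.46 higher. TGFB2 (2.90), VEGFC (3.97), PDGFD (3.60) and FBLN1 (4.03) were also called higher. In the limma fit without WT replicate 3, YAP1 (adjusted p = 0.233) and PDGFD (0.0884) were lost. CCN2, NOG, WWTR1, TGFB2, VEGFC and FBLN1 passed there. YAP1 was called at 12 h (0.0418) and not at 6 h (0.278). Of 14 alpha and beta tubulins 3 were lower, TUBA1A (-1.87), TUBB2A (-2.83) and TUBA1B (-0.98), and 1 was higher, TUBA8.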
